A study of Mus musculus with 6 samples.

Results

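Vax1, Vax2, Six3, Six6, Rax, Otx1, Otx2, Meis2, Tbx2 and Foxd1 encode transcription factors of the anterior forebrain and the eye field. Their transcripts were examined in embryonic mouse cortex with a conditional deletion of the genes of the histone deacetylases HDAC1 and HDAC2. The 10 symbols were looked up by name in a table of 12041 symbols, and 9 of them have a row there, with Six6 not analysed here. The set was chosen by the cKO and WT levels of Vax1 and Vax2 in these same libraries, so the values of this pair are described here without a test. For the other 7 genes the question was whether they differed in the same way. RNA came from cortex of C57BL/6 embryos at embryonic day 12.5, from 3 libraries labelled Hdac1&2 cKO (columns HM-5, HM-13 and HM-16) and 3 labelled WT (columns HC-1, HC-8 and HC-10). In the cKO, both Hdac1 and Hdac2 are conditionally deleted. The labels do not name the recombinase driver, its promoter, the deleted exons or the alleles of the WT embryos. They also leave it unsaid whether each library is a different embryo, and the p-values rest on a spread that may be technical.

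The eye field is the part of the anterior neural plate from which both eyes arise, and it is marked by a shared network of homeobox genes that includes Rax, Six3 and Six6. Later, Vax1 and Vax2 mark the ventral side of the eye and the optic stalk, and Vax1 also acts in the ventral forebrain at the midline. Otx and Meis factors act more broadly, in the patterning of forebrain and midbrain and of the ganglionic eminences. HDAC1 and HDAC2 take acetyl groups off histones within corepressor complexes, and are best known for holding genes silent.

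The libraries hold 9712556 to 11922665 reads over the rows of the table. In the cKO library HM-13, Rn45s (ribosomal RNA precursor) takes 29.7% of reads, and its share elsewhere is 0.506% to 2.48%. Hdac1 was 45.5, 61.0 and 47.4 FPKM (fragments scaled to transcript length and library size) in HM-5, HM-13 and HM-16, and 212, 197 and 193 FPKM in HC-1, HC-8 and HC-10. Hdac2 was 37.6, 61.7 and 47.5 FPKM in the cKO libraries and 134, 216 and 272 FPKM in the WT libraries, in the same order. These rows go the way of the labels in all 6 libraries. A second, lower Hdac2 row (ENSMUST00000105510) does not, with 6.99, 8.40 and 7.005 FPKM in the cKO libraries and 6.43, 6.85 and 6.59 FPKM in the WT libraries. Of 10 dorsal cortex markers, 9 have a row, and their summed level was 608 to 696 FPKM in cKO and 593 to 688 FPKM in WT. Of the 8 tested, 2 rose with limma, Emx2 among them (9.62% of all genes rose). By voom 2 were called (20.4% of all genes), and 3 reached an unadjusted p of 0.05 (34.3%). The markers that define neural retina, such as Atoh7, Pou4f2, Crx and Rlbp1, and 7 of the 8 pigment epithelium markers were not analysed here. The remaining retinal markers on the list, Hes5, Sfrp2 and Isl1, are also expressed in forebrain, so they give no check for eye tissue. Their sum was 181 to 225 FPKM in cKO and 144 to 179 FPKM in WT, without overlap, where 19.5% of all tested genes were higher in cKO without overlap. Most of the sum is Hes5, which was 157.6, 149.7 and 186.3 FPKM in HM-5, HM-13 and HM-16, and 119.3, 149.5 and 140.7 FPKM in HC-1, HC-8 and HC-10. Isl1 leaned the other way with overlap, at 0, 0.0622 and 0.457 FPKM in the cKO libraries and 0.286, 0.967 and 0.654 FPKM in the WT libraries.

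Vax2, the ventral eye homeobox gene on chromosome 6 (83711264 to 83738313, plus strand, GRCm38), was present in every cKO library and at or near 0 in every WT library. It was 4.66, 2.92 and 4.69 FPKM in HM-5, HM-13 and HM-16, and 0, 0 and 0.0761 FPKM in HC-1, HC-8 and HC-10. The groups do not overlap, and the lowest cKO library is HM-13, the one rich in ribosomal RNA. These levels rest on 65, 31 and 61 reads in the cKO libraries and on 0, 0 and 1 read in the WT libraries. For HC-1 and HC-8, a count of 0 allows up to 3 reads, or 0.216 and 0.191 FPKM. Over size factors, the 157 cKO reads and 1 WT read give a ratio of 178.5. The ratio is a description of the values that chose the set, and it is imprecise because its lower part rests on 1 read. By mean level, Vax2 stood above 49.2% of the 12041 symbols in the cKO libraries and above 0.1% in the WT libraries. It was the 1 symbol with at most 1 read over all WT libraries and at least 10 reads in every cKO library, a pattern set after its values were seen. The converse pattern, with the groups exchanged, was met by 0 symbols.

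Vax1, the paralog on chromosome 19 (59166187 to 59170056, minus strand), showed the opposite difference. Its level was 0, 1.49 and 3.42 FPKM in HM-5, HM-13 and HM-16, and 9.06, 9.06 and 4.52 FPKM in HC-1, HC-8 and HC-10. All cKO values lie below all WT values, but the spread inside the cKO group is wide, with HM-16 close to HC-10 and HM-5 without a read. The reads behind these levels are 0, 35 and 98 in cKO and 277, 314 and 131 in WT. In HM-5 the count of 0 allows up to 3 reads, or 0.0976 FPKM. The mean was 1.64 ± 1.71 FPKM in cKO and 7.55 ± 2.62 FPKM in WT (SD, n = 3 each), or 21.7% of WT. In the authors' deposited table the log2 fold change is 2.42 for Vax2, with no FDR, and -0.19 for Vax1, with an FDR of 0.462. The value for Vax1 has the sign of the one computed here from FPKM (-1.89) but is far smaller, and the authors' table does not call the gene. Per the submitters' processing notes DESeq2 was among the tools, and its settings are not stated.

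The pair of genes therefore exchanged places in the order of levels. Within the cKO libraries Vax2 was above Vax1 in HM-5 (4.66 against 0 FPKM), HM-13 (2.92 against 1.49 FPKM) and HM-16 (4.69 against 3.42 FPKM). Within each WT library Vax1 was above Vax2. FPKM is scaled to length, so these comparisons between genes are per length. The value-to-read ratio of the Vax1 row corresponds to a feature of 2719 bases, longer than the 1044 bases of the transcript ENSMUST00000172821 that the row names, whereas the Vax2 row corresponds to 1233 bases, near the 1242 bases of ENSMUST00000037807.

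Vax1 and Vax2 encode closely related homeodomains. HM-5 has 65 Vax2 reads and 0 Vax1 reads, and HC-8 has 0 Vax2 reads and 314 Vax1 reads. Whether reads of one gene were counted for the other was not tested.

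**Figure D1:**
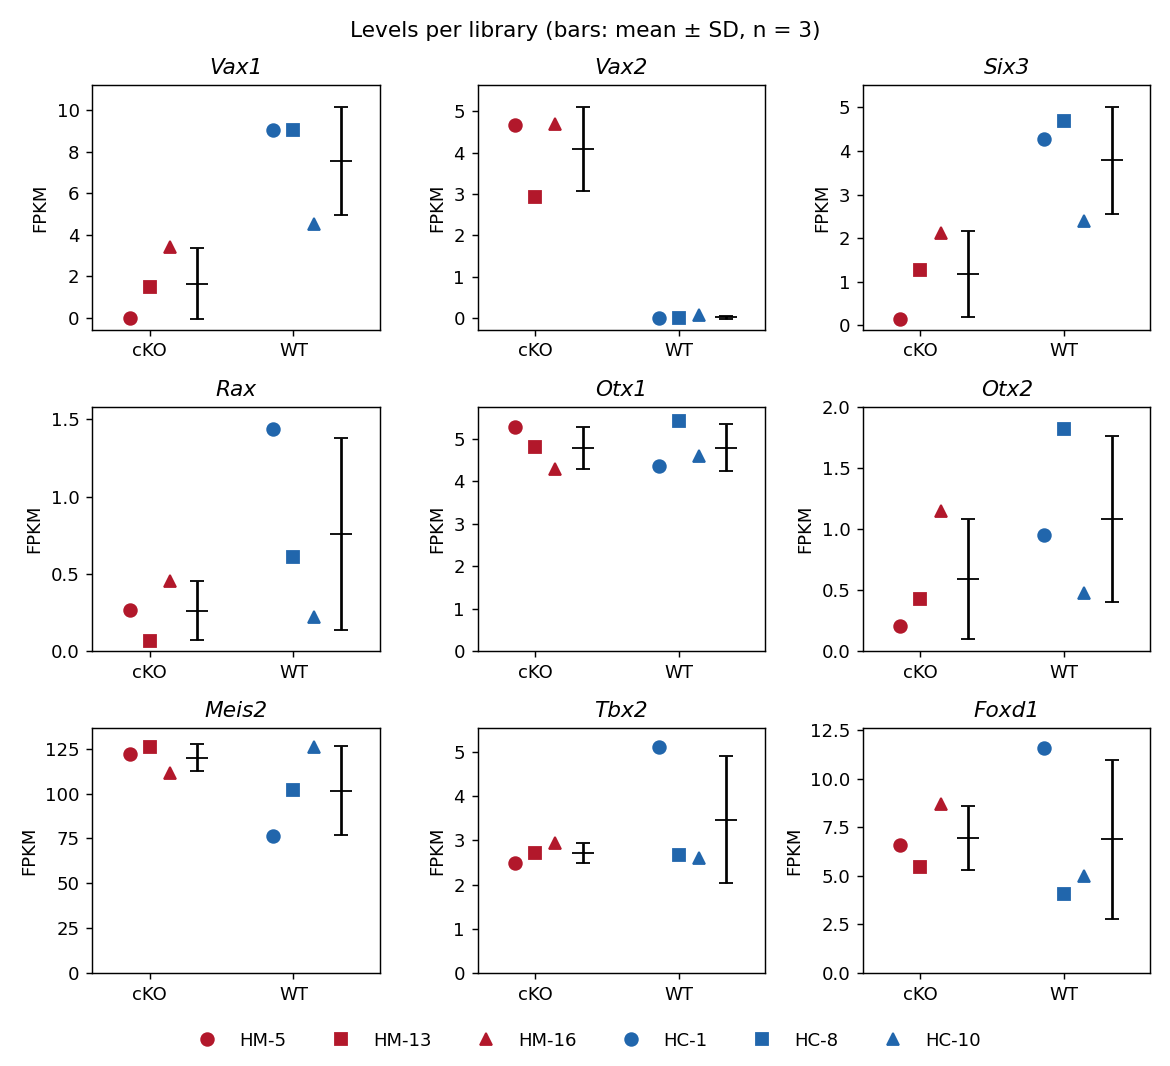
Level in FPKM (vertical axes, which include 0) of the 9 genes with a row, in the 3 cKO libraries (red, left) and the 3 WT libraries (blue, right); each symbol is 1 library, and the black bars are mean ± SD over 3 libraries. The cKO and WT libraries do not overlap for Vax1, Vax2 and Six3, and overlap for Rax, Otx1, Otx2, Meis2, Tbx2 and Foxd1.

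Among the genes that mark the eye field, Six3 came closest to the pattern of Vax1. Six3 (chromosome 17, 85613608 to 85629302, plus strand), a homeobox repressor needed for the anterior forebrain and the eyes, was 0.144, 1.26 and 2.11 FPKM in HM-5, HM-13 and HM-16, and 4.28, 4.69 and 2.40 FPKM in HC-1, HC-8 and HC-10. All cKO values lie below all WT values, though HM-16 and HC-10 are close. Six3 and Vax1 have the same order of libraries over all 6, from HC-8 through HC-1, HC-10, HM-16 and HM-13 down to HM-5. For Vax1, the place of cKO below WT in this order is the difference that chose the set. Of all tested genes, 19.6% were lower in cKO without overlap, and how many share the full order was not counted. The mean of Six3 was 1.17 ± 0.987 FPKM in cKO and 3.79 ± 1.22 FPKM in WT (SD, n = 3 each), or 31.0% of WT, over 128 reads in cKO and 491 in WT. The difference missed the threshold of an adjusted p of 0.05 with limma over all genes (log2 fold change -1.22 on the log2(FPKM + 1) scale, SE 0.37, adjusted p = 0.0563). It passed with voom on recovered reads (adjusted p = 0.0496), with a pseudocount of 5 (0.0418), after quantile normalization (0.0465) and with scaling to library totals (4.9e-07). These totals include Rn45s, which takes 29.7% of reads in HM-13. With that scaling 516 genes were called over the table, against 1685 in the main fit, so its adjusted p is not comparable with the others. With 1 library left out it passed in 0 of 6 fits (adjusted p = 0.0515 to 0.138). The authors' deposited table gives Six3 a smaller log2 fold change of -0.39, with an FDR of 0.243.

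Six3os1, a noncoding gene on the opposite strand that overlaps the 5′ part of the Six3 gene (85600651 to 85618398, minus strand), was named after its values were seen. Its row with the most reads was 0.0826, 0.239 and 0.478 FPKM in HM-5, HM-13 and HM-16, and 2.44, 1.67 and 0.561 FPKM in HC-1, HC-8 and HC-10. All cKO values lie below all WT values, and the cKO libraries keep the order of Six3. In its other 2 rows the groups overlap. It was too low for the main test, which needs 1 FPKM in at least 3 libraries, and it did not pass in the fit without this filter (log2 fold change -0.95, SE 0.27, limma adjusted p = 0.0552), in which 13.7% of all genes were called. In the authors' deposited table this row has a log2 fold change of -0.66 and an FDR of 0.0356. Whether reads were counted by strand is not given, so reads of Six3 and Six3os1 in their shared stretch cannot be told apart.

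Rax, the homeobox gene that acts earliest in the eye field and later in the hypothalamus and retina, was close to the limit of detection. It was 0.265, 0.0696 and 0.455 FPKM in HM-5, HM-13 and HM-16, and 1.44, 0.611 and 0.225 FPKM in HC-1, HC-8 and HC-10, from 1 to 27 reads per library. The groups overlap, since HC-10 lies below HM-5 and HM-16, and most of the WT mean comes from HC-1. The mean was 0.263 ± 0.192 FPKM in cKO and 0.758 ± 0.620 FPKM in WT (SD, n = 3 each), which did not pass without the filter (log2 fold change -0.43, SE 0.24, limma adjusted p = 0.270). The ratio over reads was 0.362, with an exact 95% interval of 0.183 to 0.673 for counting error only.

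Otx2, a homeobox gene of the early forebrain and midbrain, the choroid plexus and the pigmented epithelium, was also low, though above Rax in mean level in both groups. Its level was 0.206, 0.432 and 1.15 FPKM in HM-5, HM-13 and HM-16, and 0.952, 1.83 and 0.480 FPKM in HC-1, HC-8 and HC-10. The groups overlap, with HM-16 above HC-1 and HC-10. The mean was 0.595 ± 0.491 FPKM in cKO and 1.09 ± 0.683 FPKM in WT (SD, n = 3 each; log2 fold change -0.38, SE 0.27, limma without the filter, adjusted p = 0.402). Otx1 (chromosome 11, 21994764 to 22002897), its paralog in cortical progenitors, differed least of the set. Otx1 was 5.27, 4.805 and 4.29 FPKM in HM-5, HM-13 and HM-16, and 4.36, 5.43 and 4.604 FPKM in HC-1, HC-8 and HC-10. Its log2 fold change was -0.00 (SE 0.12, limma adjusted p = 0.994), and the ratio over 763 reads in cKO and 873 in WT was 0.994 (exact 95% interval 0.901 to 1.096, counting error only). The transcript named in the Otx1 row, ENSMUST00000172395, is annotated as having a retained intron. Otx1 was above Otx2 in each of the 6 libraries.

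Meis2 (chromosome 2, 115863064 to 116065839), a TALE homeobox gene of the lateral ganglionic eminence, the cortex and the early eye, was by far the most abundant of the set. It was 122, 126 and 112 FPKM in HM-5, HM-13 and HM-16, and 76.5, 102 and 126 FPKM in HC-1, HC-8 and HC-10. The groups overlap, and HC-1 is the lowest library. The mean was 119.9 ± 7.52 FPKM in cKO and 101.5 ± 24.8 FPKM in WT (SD, n = 3 each; log2 fold change 0.27, SE 0.16, limma adjusted p = 0.291). The row names no Ensembl transcript, and its value-to-read ratio corresponds to a feature of 488 bases, so 420 to 674 reads per library make a high FPKM. A second Meis2 row, of a retained-intron transcript of 5498 bases, had 1.43, 2.92 and 0.587 FPKM in HM-5, HM-13 and HM-16, and 1.68, 1.13 and 1.66 FPKM in HC-1, HC-8 and HC-10. Its cKO libraries spread 4.97-fold, against 1.13-fold in the first row. The level of Meis2 against the other genes thus depends on which row stands for it.

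Tbx2 and Foxd1 mark the dorsal eye and the ventral diencephalon and temporal retina, and both are also made in mesenchyme. Tbx2, a T-box repressor, was 2.48, 2.71 and 2.93 FPKM in HM-5, HM-13 and HM-16, and 5.12, 2.67 and 2.61 FPKM in HC-1, HC-8 and HC-10. The groups overlap, and HC-1 stands far above the other WT libraries. The mean was 2.71 ± 0.223 FPKM in cKO and 3.46 ± 1.43 FPKM in WT (SD, n = 3 each). The log2 fold change was -0.22 (SE 0.21, limma adjusted p = 0.490), and without HC-1 it was 0.03. Foxd1, a forkhead factor, was 6.61, 5.47 and 8.71 FPKM in HM-5, HM-13 and HM-16, and 11.6, 4.08 and 4.996 FPKM in HC-1, HC-8 and HC-10. HC-1 is again the highest library, and the groups overlap (log2 fold change 0.11, SE 0.33, limma adjusted p = 0.848). Without HC-1 the log2 fold change of Foxd1 was 0.50 (adjusted p = 0.134), and without HC-8 it was -0.15. Of 15 markers of meninges, mesenchyme and pericytes, 12 have a row, and none is at 0 in any library. Their summed level was 408, 288 and 451 FPKM in HM-5, HM-13 and HM-16, and 514, 257 and 286 FPKM in HC-1, HC-8 and HC-10. Like Foxd1 and Tbx2, the sum was highest in HC-1, and the part of mesenchyme in these values was not tested. Of these 12 markers, 0 were called by limma (18.0% of all genes) or by voom (20.4%), and 0 reached an unadjusted p of 0.05 (34.3%).

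Across the set, 7 of the 9 genes with a row reached the filter of 1 FPKM in at least 3 libraries. Vax2 reached it through its cKO libraries alone, and Rax and Otx2 missed it. Of the 5 genes other than Vax1 and Vax2 that were tested, limma called 0, where 18.0% of 9359 tested genes were called. Six3 was the 1 with an unadjusted p under 0.05 (34.3% of all genes) and the 1 called by voom (20.4% of all genes). The count of genes called over the table was 1685, and it was 511 without HM-5, 545 without HM-16, 888 without HC-10 and 1103 without HC-1. Without HC-8 the count was 1421, and without HM-13, the library rich in Rn45s, it was 1773. The cKO and WT libraries did not overlap for 3 of the 9 genes, which include the pair that chose the set, where 39.1% of all tested genes did not overlap. For Vax1 and Six3, which are lower in cKO, that share in the same direction was 19.6%, and for Vax2, which is higher, it was 19.5%. Means were lower in cKO for 6 of the 9 genes and higher for 3, and the direction of Otx1, Tbx2 and Foxd1 turned with 1 library left out.

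**Figure D2:**
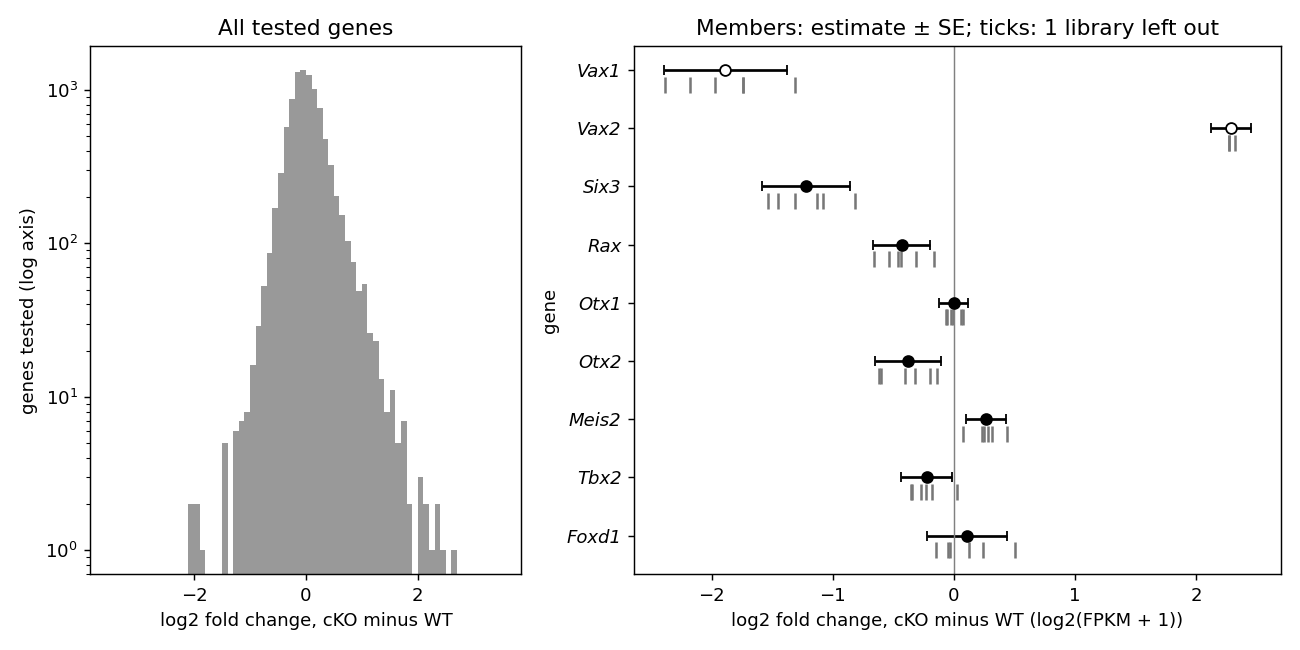
Left, log2 fold changes (cKO minus WT, on the log2(FPKM + 1) scale) of all 9359 tested genes as a histogram with a log axis of gene numbers; right, those of the 9 genes as circles with bars of ± SE, and grey ticks for the fits with 1 library left out. Open circles are Vax1 (-1.89) and Vax2 (2.29), whose difference chose the set, filled circles are the others, and Rax and Otx2 come from the fit without a filter; Six3 (-1.22) is the filled circle farthest from 0.

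The order of mean levels in the cKO libraries was Meis2, Foxd1, Otx1, Vax2, Tbx2, Vax1, Six3, Otx2 and Rax. In that order Meis2 stood apart from Foxd1 and Foxd1 from Otx1, while each further pair of neighbours overlapped in range. In the WT libraries the order was Meis2, Vax1, Foxd1, Otx1, Six3, Tbx2, Otx2, Rax and Vax2. There, Meis2 and Vax1, Tbx2 and Otx2, and Rax and Vax2 stood apart, and the other neighbours overlapped. Vax1 was thus at place 6 in cKO and at place 2 in WT, and Vax2 at place 4 in cKO and at place 9 in WT.

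By the rule for likeness of pattern, the smallest root mean square difference between centred log2(FPKM + 1) profiles over the 6 libraries, the genes nearest to Vax1 were Mid1 (0.441), Rhcg (0.576) and Emb (0.617). Mid1, which encodes a ubiquitin ligase of microtubules, was 0.131, 1.76 and 2.81 FPKM in HM-5, HM-13 and HM-16, and 3.59, 6.17 and 3.58 FPKM in HC-1, HC-8 and HC-10. It shares with Vax1 the near absence in HM-5. Nearest to Vax2 were Rhpn2 (0.106), Prr15 (0.107) and Smtnl2 (0.208), none of which was near 0 in WT as Vax2 was. Rhpn2 was 11.4 to 14.5 FPKM in cKO and 1.69 to 1.92 FPKM in WT. Prr15 was 33.5 to 43.4 FPKM in cKO and 6.19 to 6.59 FPKM in WT. Smtnl2 was 7.17 to 11.96 FPKM in cKO and 1.18 to 1.94 FPKM in WT. The measure compares differences on a log scale with a pseudocount of 1, so it gives weight to size of change and little to the level near 0.

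The cortex can carry pieces of neighbouring tissue in which Vax1, Six3, Rax and Otx2 are higher than in dorsal cortex, and in bulk RNA fewer cells of a type and less RNA per cell cannot be told apart. Markers of the ventral telencephalon and septum, 8 of 16 with a row, summed to 44.4, 60.0 and 80.7 FPKM in HM-5, HM-13 and HM-16, and to 37.6, 108 and 83.5 FPKM in HC-1, HC-8 and HC-10. Dlx2, a homeobox gene that defines the ganglionic eminences, was 1.43, 11.8 and 13.1 FPKM in the cKO libraries and 3.74, 38.3 and 26.5 FPKM in the WT libraries. Gad2, which makes GABA, was 0.0314, 2.37 and 4.65 FPKM in the cKO libraries and 0.727, 6.08 and 7.54 FPKM in the WT libraries. HM-5, in which Vax1 was at 0 and Six3 lowest, also had the lowest Dlx2 and Gad2, and Gsx2 and Isl1 were at 0 there. HC-1 had the lowest Dlx2 and Gad2 of the WT libraries, and its Vax1 (9.06 FPKM) and Six3 (4.28 FPKM) were about as high as in HC-8. Of the 6 tested ventral markers, 0 were called by limma (18.0% of all genes) or by voom (20.4%), and 0 reached an unadjusted p of 0.05 (34.3%).

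Other neighbouring tissues differed between libraries as well. Markers of the diencephalon and hypothalamus, 5 of 12 with a row and none at 0, summed to 14.4, 19.0 and 13.9 FPKM in HM-5, HM-13 and HM-16, and to 23.3, 29.0 and 25.8 FPKM in HC-1, HC-8 and HC-10. These sums do not overlap, where 19.6% of all tested genes were lower in cKO without overlap. Of the 3 tested markers, 0 were called by limma (18.0% of all genes) or by voom (20.4%), and 2 reached an unadjusted p of 0.05 (34.3%). The hem and choroid plexus markers, 13 of 16 with a row and none at 0, summed to 308, 247 and 305 FPKM in HM-5, HM-13 and HM-16, and to 414, 505 and 61.0 FPKM in HC-1, HC-8 and HC-10. HC-10 was the lowest for these markers and, among the WT libraries, for Vax1, Six3, Rax, Otx2 and Tbx2. Ttr, made by the choroid plexus, was 64.5, 68.4 and 27.1 FPKM in the cKO libraries and 118.5, 145 and 0.0769 FPKM in the WT libraries. Of the 13 hem and choroid plexus markers, 0 were called by limma or by voom, and 0 reached an unadjusted p of 0.05. Without HC-10, the log2 fold change was -2.18 for Vax1 and -1.45 for Six3, and without HM-5 it was -1.31 for Vax1 and -0.82 for Six3. Dct, the 1 pigment epithelium marker with a row, was 4.53, 2.46 and 3.39 FPKM in the cKO libraries and 7.66, 4.58 and 6.14 FPKM in the WT libraries (limma adjusted p = 0.0674). The part of these tissues in the differences of Vax1, Six3, Rax and Otx2 was not tested.

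**Figure D3:**
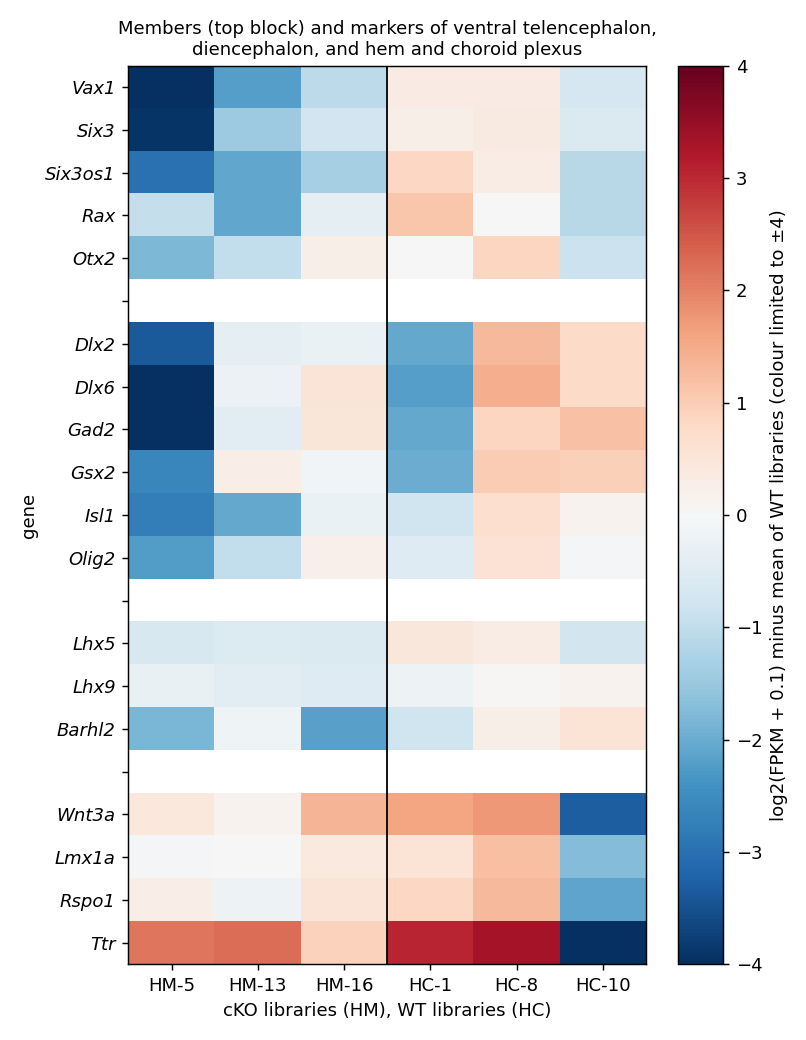
Levels in the 3 cKO libraries (left of the line) and the 3 WT libraries (right), as log2(FPKM + 0.1) minus the mean of the WT libraries, in colour limited to ±4; the blocks from the top are Vax1, Six3, Six3os1, Rax and Otx2, then markers of the ventral telencephalon, of the diencephalon, and of the hem and choroid plexus. HM-5 is darkest blue for Vax1 (0 FPKM), Gad2 (0.0314 FPKM) and Dlx6 (0.0826 FPKM), with Six3 close to them. HC-10 is lowest for the hem and choroid plexus block, with Ttr at 0.0769 FPKM.

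Of 24 genes of the eye field, optic vesicle and retinal progenitors, 10 have a row and 8 were tested. Nr2e1, an orphan nuclear receptor of forebrain and retinal progenitors, rose to 54.7 ± 4.53 FPKM in cKO, against 41.7 ± 4.89 FPKM in WT (SD, n = 3 each; 1.31-fold, log2 fold change 0.39, SE 0.10, limma adjusted p = 0.0375). It was the 1 of the 8 that rose, and 0 fell, where 9.62% of all genes rose and 8.39% fell. The median log2 fold change of the 8 was 0.16, beside -0.01 over all tested genes. Nr2e1 lost its call without HM-5, HM-16, HC-1 or HC-8 (highest adjusted p = 0.139) and with scaling to library totals (0.598). The LIM homeobox gene Lhx2, which acts in both eye field and cortex, was 101, 79.5 and 103 FPKM in HM-5, HM-13 and HM-16, and 119, 101 and 99.6 FPKM in HC-1, HC-8 and HC-10, with overlapping groups.

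Of 12 genes tied to Vax1 and Vax2 in the ventral eye and optic stalk, 6 have a row and 4 were tested. With limma 0 passed (18.0% of all genes), with voom 0 (20.4%), and 0 had an unadjusted p under 0.05 (34.3%). With 4 genes, counts of 0 are not far from these shares. The ephrin Efnb1, a cell surface ligand patterned across the retina, was 236 ± 15.0 FPKM in cKO and 210.3 ± 14.6 FPKM in WT (SD, n = 3 each; limma adjusted p = 0.169). Ntn1, which encodes the guidance cue netrin-1 of the optic disc and ventral forebrain, was 1.23, 4.63 and 6.89 FPKM in HM-5, HM-13 and HM-16, and 2.67, 9.05 and 5.82 FPKM in HC-1, HC-8 and HC-10 (limma adjusted p = 0.580). Aldh1a3, a retinoic acid synthase of the ventral eye, was 0, 0.0683 and 0.307 FPKM in the cKO libraries and 0.105, 0.392 and 0.525 FPKM in the WT libraries, too low for the test. The median log2 fold change of the 4 was 0.07.

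Cofactors and relatives of the set had no call with limma. Of 18 cofactors of Six3, Meis and Otx proteins, 9 have a row and 6 were tested, of which limma called 0 (18.0% of all genes), voom called 2 (20.4%) and 3 had an unadjusted p under 0.05 (34.3%). Pbx2, a TALE partner of Meis proteins, was 102 ± 4.54 FPKM in cKO and 119 ± 5.59 FPKM in WT (SD, n = 3 each; log2 fold change -0.22, limma adjusted p = 0.0508), and it passed voom (adjusted p = 0.0435). Of 16 family members of the set, 7 have a row and 6 were tested, and 0 were called by limma or by voom or reached an unadjusted p of 0.05. Six4, a relative of Six3 outside the eye field network, was 3.84 ± 0.952 FPKM in cKO and 2.82 ± 0.440 FPKM in WT (SD, n = 3 each; limma adjusted p = 0.231). The median log2 fold changes were 0.10 for the cofactors and 0.18 for the family members.

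Rostral patterning and regional genes of the forebrain changed in both directions. Of 26 on the list, 18 have a row and 16 were tested, and 3 rose and 4 fell, where 9.62% of all genes rose and 8.39% fell. The median log2 fold change was -0.04, beside -0.01 over all tested genes. Fgf15, a growth factor of forebrain progenitors, fell to 3.25 ± 0.658 FPKM in cKO, against 16.95 ± 9.05 FPKM in WT (SD, n = 3 each; log2 fold change -1.98, SE 0.31, limma adjusted p = 0.00716), and it passed with each library left out. Sfrp1, a secreted Wnt modulator, fell to 77.1% of WT (adjusted p = 0.0234). Etv4 and Spry2, which are induced by FGF signalling and were named after their values were seen, fell to 25.1% and 52.0% of WT (adjusted p = 0.0435 and 0.0474). Emx2, a dorsal homeobox gene, rose 1.52-fold (adjusted p = 0.0360). Nr2f1, also named after its values were seen, rose 1.54-fold (adjusted p = 0.0378). With 1 library left out, 1 to 4 genes of the list were called: 1 without HM-5 or HM-16, 3 without HC-1 or HC-8 and 4 without HM-13 or HC-10. Emx2 lost its call in 5 of these 6 fits, as did Nr2f1 and Spry2, and Sfrp1 in 4, while Etv4 passed in 0 of the 3 fits that tested it. With scaling to library totals Sfrp1, Emx2 and Nr2f1 did not pass, nor did Sfrp1 after quantile normalization (adjusted p = 0.0514), Etv4 with voom (0.0562) or Spry2 with a pseudocount of 5 (0.0501).

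**Figure D4:**
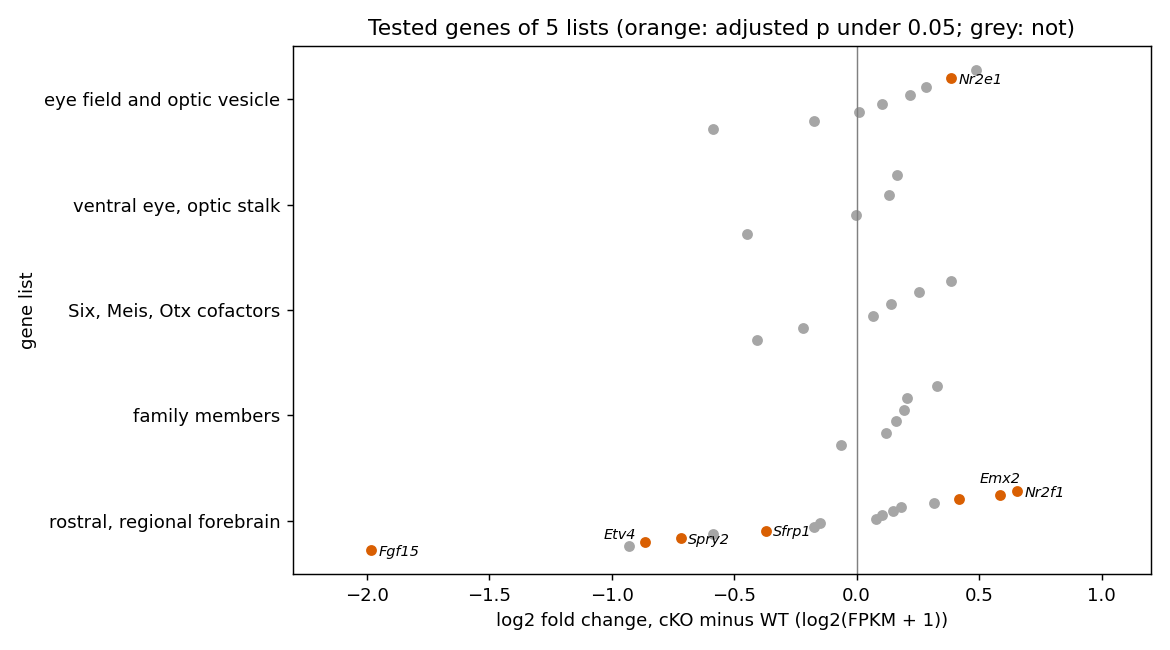
Log2 fold changes (cKO minus WT, horizontal axis, on the log2(FPKM + 1) scale) of the tested genes of the 5 lists (rows), with orange points for an adjusted p under 0.05 and grey points for the rest; a gene on several lists appears in each. The labelled orange points are Nr2e1 in the eye field list and Fgf15, Sfrp1, Etv4, Spry2, Emx2 and Nr2f1 in the rostral list.

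Promoters from RefSeq (GRCm38.p6; 250 bases before to 50 bases after a start) were found for 6 of the 10 genes, Foxd1, Meis2, Otx2, Six3, Six6 and Vax1. Those of Vax1, Six3 and Otx2 are shown because their mean levels were lower in cKO, with capitals for 3 motifs searched on both strands: TAATTA, a core bound by many homeodomains, TAATCC, which Otx homeodomains prefer, and TGACAG, bound by Meis proteins. TAATTA is in 5.29%, TAATCC in 7.06% and TGACAG in 19.2% of 32851 promoters, and no match overlaps another in the 3 shown.
Vax1, chr19:59170348-59170647, minus strand: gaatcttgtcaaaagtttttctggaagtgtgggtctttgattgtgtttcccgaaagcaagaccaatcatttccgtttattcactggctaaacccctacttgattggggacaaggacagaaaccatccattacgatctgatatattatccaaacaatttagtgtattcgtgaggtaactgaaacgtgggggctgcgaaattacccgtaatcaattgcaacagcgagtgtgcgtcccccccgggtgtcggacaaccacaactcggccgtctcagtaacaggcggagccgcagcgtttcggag
Six3, chr17:85620584-85620883, plus strand: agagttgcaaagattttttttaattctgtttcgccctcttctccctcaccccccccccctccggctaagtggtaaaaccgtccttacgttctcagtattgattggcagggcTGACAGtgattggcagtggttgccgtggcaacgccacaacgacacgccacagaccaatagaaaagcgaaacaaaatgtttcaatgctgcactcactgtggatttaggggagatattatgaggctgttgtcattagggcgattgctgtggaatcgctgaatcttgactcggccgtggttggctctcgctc
Otx2, chr14:48665060-48665359, minus strand: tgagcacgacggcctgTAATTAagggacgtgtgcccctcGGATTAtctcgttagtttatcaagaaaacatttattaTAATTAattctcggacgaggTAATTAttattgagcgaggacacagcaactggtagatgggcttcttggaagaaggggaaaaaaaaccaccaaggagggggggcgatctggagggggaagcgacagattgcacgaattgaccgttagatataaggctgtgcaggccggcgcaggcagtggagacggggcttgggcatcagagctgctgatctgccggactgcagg
The Otx2 window, 1 of 4 listed for that gene, is the one at the start of the transcript in its row, and it holds TAATTA 3 times and TAATCC once, on the other strand as GGATTA. The Vax1 window lies wholly outside the span of that gene given above (59166187 to 59170056). The Six3 window lies inside its gene span (85613608 to 85629302). Neither was matched here to the transcript in its row. The Six3 window holds TGACAG once, and that of Vax1 holds none of the 3. They have 17 CG pairs in Vax1, 14 in Six3 and 16 in Otx2, above the median of 7 over all promoters.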

How the data were processed

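Cortex RNA of 3 cKO and 3 WT libraries (embryonic day 12.5) was sequenced after TruSeq RNA library preparation. Per the submitters' processing notes DESeq2 1.22.1 in R 3.4.1, featureCounts 1.6.1, STAR 2.5.4b and bcl2fastq 1.8.4 were used, and the build was mm10. Annotation, strand setting and row filters are unstated. The 1 deposited table has 14379 rows with FPKM per library, per the file headers. It also gives the authors' mean normalized count, which is a signal averaged over the libraries, and, from the authors' own comparison, a deposited p-value, an FDR and a log2 fold change. HC columns were read as WT and HM columns as cKO from their letters alone.

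Each symbol was represented by its row with the highest mean count. The main test was limma 3.58.1 (R 4.3.3), run on log2(FPKM + 1) with group as the only term and a mean-variance trend, for genes that reached 1 FPKM in 3 or more libraries. Adjusted p-values are Benjamini-Hochberg over all tested genes. The design, written for counts, fell back to this because the file holds FPKM. Fold changes on this scale understate those of low genes. Whole reads were recovered as FPKM × mean count / mean FPKM over each library's size factor, with 100% of values whole within 0.001 of a read. They served for depth, intervals and voom. The members and lists were chosen with earlier results of these data known. All 10 members, Hdac1 and Hdac2 are named, and of each list the 4 called genes with the smallest p, or 2 where none was called. The code was tested on simulated reads. Alternatives were pseudocounts of 0.1 and 5, no filter, scaling to library totals, quantile normalization, voom, all rows kept, and leaving out each library. No sample column was left unused (0), and 3 libraries against 3 allow an exact permutation p of 0.10 at the lowest. Some genes that the rule names, and a sequence, are not reported here, while the counts of each list include all of its genes.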

Additional observations from a re-analysis of the deposited data

How the results depend on the processing

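The columns carry no replicate numbers of the labels, and no paired analysis was possible because of this. The count of changed genes was 1685. It was 516 with scaling to library totals and 511 to 1773 with 1 library left out. Of the 5 tested genes other than Vax1 and Vax2, 0 were called, against 1 (Six3) with a pseudocount of 5, scaling to library totals, quantile normalization or voom, and 0 to 0 with 1 library left out. The eye field list had 1 call, 0 with library totals, 2 after quantile normalization and 0 to 2 with 1 library left out. The cofactor list had 0 calls, 1 with a pseudocount of 5, 1 after quantile normalization, 2 with voom and 0 to 1 with 1 library left out. The rostral list had 7 calls, 4 with library totals and 1 to 4 with 1 library left out. The ventral eye and family lists had 0 in each setting. Direction held in each setting run for Vax1, Vax2, Six3, Rax, Otx2 and Meis2, but the log2 fold change of Vax2 ran from 0.85 with a pseudocount of 5 to 6.34 with voom and that of Vax1 from -0.93 to -4.22. Without a cKO library Vax2 missed the filter. The cause of these differences was not tested. At 1 to 50 reads per library, Rax and Otx2 allow only wide intervals.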
